A study of Mus musculus with 8 samples.

Results

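The genes for albumin and 9 apolipoproteins (Alb, Apoa1, Apoa2, Apoa4, Apob, Apoc1, Apoc2, Apoc4, Apoe and Apoh) were followed across 8 mouse liver arrays. They were chosen by name, as every probe set that the array annotation assigns to 1 of these 10 genes alone, which gave 12 probe sets of the 12422 tested and 10 genes of the 8251 covered. Apoa2 and Apoe had 2 probe sets each and the other genes 1. Total RNA was hybridised to MG-U74Av2 oligonucleotide arrays (Affymetrix), with 2 for each of 4 groups, namely untreated Atf4+/+, AP20187-treated Atf4+/+, untreated Atf4-/- and AP20187-treated Atf4-/- livers. Every mouse, controls included, carried the low-expressing Ttr::Fv2E-PERK transgene of 1 line, in which the transthyretin promoter drives a fusion of the stress kinase PERK to a drug-binding domain in hepatocytes. AP20187 joins 2 such domains and so activates the kinase, which phosphorylates the translation factor eIF2 and starts the integrated stress response. Atf4 encodes the transcription factor whose translation rises in that response. The mice were siblings on a mixed FvB/n and Swiss Webster background, and their age, the dose and the time after AP20187 are not given in the sources used here. The series title speaks of mock injection where the sample labels say untreated.

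Albumin is the most abundant protein of plasma and is made by hepatocytes. Apolipoproteins are the protein coats of lipoproteins, the particles that carry cholesterol and triglyceride in blood. ApoB forms the backbone of very low density lipoprotein (VLDL), apoA-I and apoA-II are the main proteins of high density lipoprotein (HDL), and the smaller apoC proteins and apoE move between particles and govern their breakdown and uptake. All are secreted through the endoplasmic reticulum, where PERK normally senses stress.

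In GRCm38.p6 coordinates Apoc2, Apoc4, Apoc1 and Apoe lie together within 29.7 kb of chromosome 7 (19671579 to 19701310). Apoa1 (46228630 to 46230469) and Apoa4 (46240844 to 46243458) belong to a group of 4 genes within 43.3 kb of chromosome 9. The remaining members stand apart: Alb on chromosome 5 (90460870 to 90476602), Apoa2 on chromosome 1 (171221564 to 171226379), Apob on chromosome 12 (7977629 to 8016839) and Apoh on chromosome 11 (108395297 to 108414396). RefSeq promoter windows were found for 9 of the 10 genes, 12 windows in all. The 250 bases before the start are printed for the plasma carrier Alb and for the HDL genes Apoa1 and Apoa2, a choice made after the values were seen, because Alb and Apoa1 were among the members whose ratios moved most alike and Apoa2 was the 1 gene whose 4 treated arrays lay apart from the 4 untreated ones. Capitals mark exact matches to the short motifs named below the sequences, searched on both strands. Motifs of other liver transcription factors, HNF1 among them, were not marked, so lower case letters do not show that they are absent. The windows are chr5:90460620-90460869 for Alb, chr9:46228380-46228629 for Apoa1 and chr1:171221314-171221563 for Apoa2, each on the plus strand, 5′ to 3′. RefSeq gives Apoa2 another start inside the gene, whose window (chr1:171224804-171225053, with matches to TGTTTAC and TATAAA) is not printed. Which of these Apoa2 starts is used in the livers was not tested.
Alb: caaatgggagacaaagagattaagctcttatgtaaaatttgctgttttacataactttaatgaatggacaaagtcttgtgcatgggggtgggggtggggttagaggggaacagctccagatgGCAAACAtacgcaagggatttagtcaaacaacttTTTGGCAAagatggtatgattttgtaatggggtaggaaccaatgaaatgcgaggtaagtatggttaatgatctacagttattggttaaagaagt
Apoa1: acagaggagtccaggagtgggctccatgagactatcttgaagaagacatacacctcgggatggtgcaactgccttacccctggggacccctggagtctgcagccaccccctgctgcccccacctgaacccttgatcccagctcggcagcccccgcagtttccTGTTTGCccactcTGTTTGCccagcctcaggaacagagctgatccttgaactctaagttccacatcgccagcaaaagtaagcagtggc
Apoa2: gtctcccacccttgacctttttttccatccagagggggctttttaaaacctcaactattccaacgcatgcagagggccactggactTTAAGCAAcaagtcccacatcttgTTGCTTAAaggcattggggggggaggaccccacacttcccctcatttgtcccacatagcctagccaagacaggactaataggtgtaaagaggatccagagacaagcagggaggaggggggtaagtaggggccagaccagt
The Alb window holds 1 match to the FOXA motif TGTTTGC and 1 to the C/EBP motif TTGCNNAA, both on the opposite strand. The Apoa1 window holds TGTTTGC 2 times, and the Apoa2 window holds TTGCNNAA 2 times, once on each strand. Either FOXA motif, TGTTTGC or TGTTTAC, was found in 5 of the 12 member windows and in 7.29% of 32851 RefSeq promoters of the same length. TTGCNNAA was found in 3 of 12 and in 9.56%, and TATAAA in 3 of 12 and in 12.4%. TGATGNAA, a motif of the composite site of C/EBP and ATF factors, was found in 1 of 12, an Apoe window, and in 3.45% of all promoters. The HNF4 motifs CAAAGTCCA and AGGTCAAAG were in 0 of 12 windows and in 0.384% and 0.381% of promoters. TGTTTGC and TTGCNNAA share the letters TTGC and can overlap, which they did not in the printed windows. A match describes the letters alone.

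Each deposited value is a linear ratio, for 85.8% of the table close to the probe set's own median over the 8 arrays, so that a value of 1 is an ordinary level for that probe set and levels of different genes cannot be set against each other. The brightness behind a ratio is unknown, hepatocyte identity could be followed only as ratios of its markers across arrays, and 8 arrays give limited precision. Nothing in the labels states that both arrays of a group came from different animals, and otherwise p-values describe sample-to-sample spread alone, which may be technical. In bulk liver RNA, fewer hepatocytes and less RNA per hepatocyte cannot be told apart. Differences are of log2(ratio + 0.1), which understates changes of low ratios, and were tested with limma with Benjamini-Hochberg adjustment over all 12422 probe sets and a threshold of 0.05.

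Some arrays went against their labels. The Atf4 ratio was 2.36 and 0.30 in the libraries labelled untreated Atf4+/+, 0.29 and 1.67 in those labelled untreated Atf4-/-, 4.17 and 5.75 in treated Atf4+/+ and 0.25 and 0.33 in treated Atf4-/-. Replicate 2 of both untreated groups therefore stood on the side of the other genotype, so that directions between the untreated genotypes rest on doubted labels. Untreated Atf4-/- replicate 1 has Atf4-/- in its source name and Atf4+/+ in its description, and was grouped by the former. Its Atf4 ratio of 0.29 lay near those of treated Atf4-/- livers, on the side of its source name. Grouping it by its description, as done below for comparison, goes against that ratio. Treated Atf4+/+ replicate 2 also stood apart, with Gapdh control ratios of 0.67 to 0.72, the lowest of the 8 arrays. Its Actb control read lower at the 5′ end than at the 3′ end by -0.64 on the log2 scale. The next lowest array had -0.19. Such a gap can be a sign of RNA or labelling quality. The Gapdh control had no such gap, at -0.06 in this array and -0.05 in untreated Atf4+/+ replicate 1. The middle Actb probe set of treated Atf4+/+ replicate 2, at 0.30, was below that of the 5′ end, at 0.43. The part of RNA quality in the results below was not tested.

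No member passed the test in any comparison. Most had their highest ratio in an array labelled untreated Atf4-/-, 1 of which has conflicting labels and the other an Atf4 ratio against its label, and their lowest in a treated Atf4+/+ array. Of the 12 probe sets, 11 had their highest ratio in an untreated Atf4-/- array, against 30.3% of all probe sets, and 10 had their lowest in a treated Atf4+/+ array, against 35.5%. Both held for 9 of 12, against 13.5% of all. Without both arrays of doubted Atf4 ratio, 10 of 12 were highest in the remaining array labelled untreated Atf4-/- (22% of all). With that array grouped as Atf4+/+ and all 8 arrays kept, the other untreated Atf4-/- array was the highest for 4 of 12 (14.8% of all). Without treated Atf4+/+ replicate 2, 6 of 12 were lowest in the remaining treated Atf4+/+ array (18.5% of all). The median member ratio was 1.24 and 1.16 in the untreated Atf4-/- arrays, 1.005 and 0.925 in untreated Atf4+/+, 0.995 and 1.02 in treated Atf4-/-, and 0.915 and 0.755 in treated Atf4+/+. A single array held most of the low values, as treated Atf4+/+ replicate 2 was the lowest of the 8 for 7 of the 12 probe sets. It was the lowest for 21.4% of all probe sets, the largest such share of any array.

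**Figure D1:**
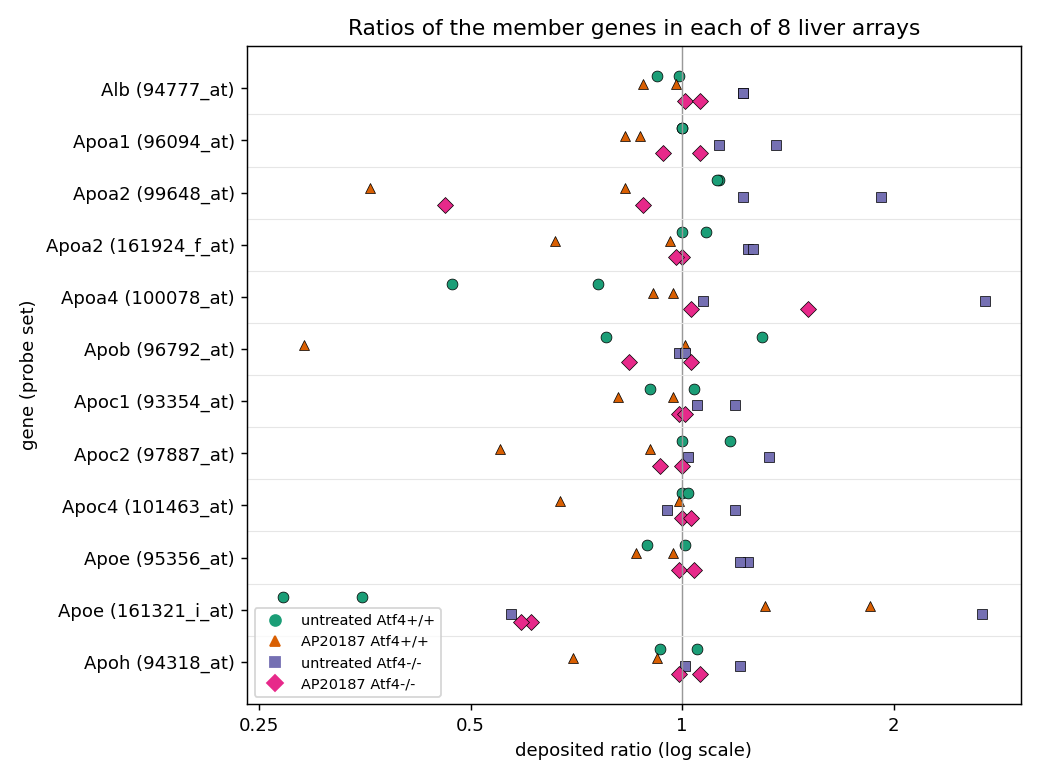
Deposited ratio (log axis) of each of the 12 member probe sets in each of 8 liver arrays, 1 symbol per array, coloured by group and with no summary drawn. The untreated Atf4-/- squares lie to the right in most rows. The treated Atf4+/+ triangles lie to the left in most, but not for Apoa4 or the probe set 161321_i_at of Apoe. The lowest values of Apob (0.29) and Apoa2 (0.36) are both treated Atf4+/+ replicate 2.

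Albumin was among the steadiest members. Its ratio (94777_at) was 0.99 and 0.92 in untreated Atf4+/+, 0.88 and 0.98 in treated Atf4+/+, 1.22 and 1.22 in untreated Atf4-/-, and 1.01 and 1.06 in treated Atf4-/- livers. The treated and untreated Atf4-/- arrays did not overlap, while those of Atf4+/+ did. The log2 difference with AP20187 was -0.04 ± 0.19 (SE, 2 against 2 arrays; limma adjusted p = 0.969) in Atf4+/+ and -0.22 ± 0.19 (adjusted p = 0.808) in Atf4-/-. The 95% interval of the average over both genotypes ran from -0.46 to 0.21.

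Of Apoa1 and Apoa2, the genes of the main HDL proteins, Apoa2 had the larger treatment differences. The ratio of Apoa1, whose product organises HDL and activates the enzyme LCAT, was 1.0 and 1.0 in untreated Atf4+/+, 0.83 and 0.87 in treated Atf4+/+, 1.36 and 1.13 in untreated Atf4-/-, and 0.94 and 1.06 in treated Atf4-/- livers. Treated arrays were below untreated ones in both genotypes without overlap, by -0.21 ± 0.21 and -0.29 ± 0.21 on the log2 scale (SE; limma adjusted p = 0.783 and 0.775). Differences of that size lay within about 1.5 SE of 0.

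Apoa2 encodes the second most abundant HDL protein and was read by 2 probe sets. By 99648_at its ratio was 1.13 and 1.12 in untreated Atf4+/+, 0.83 and 0.36 in treated Atf4+/+, 1.92 and 1.22 in untreated Atf4-/-, and 0.88 and 0.46 in treated Atf4-/- livers. All 4 treated arrays (mean 0.632 ± 0.261, SD) lay below all 4 untreated arrays (1.35 ± 0.38), the only member probe set of 12 for which this held. An exact two-sided permutation test of 4 against 4 arrays, which exchanged arrays without regard to genotype, gave p = 0.0286. That is the smallest p such a test can give, and 7.97% of all probe sets reached it. It follows from the lack of overlap and adds nothing to it, and exchanges within each genotype were not tested. In limma the difference was -0.91 ± 0.44 in Atf4+/+ (SE; adjusted p = 0.609), -1.14 ± 0.44 in Atf4-/- (0.667) and -1.02 ± 0.31 averaged over both genotypes (adjusted p = 0.354). Without treated Atf4+/+ replicate 2 the Atf4+/+ difference was -0.40, and without treated Atf4-/- replicate 2 the Atf4-/- difference was -0.74. Without both untreated arrays of doubted genotype the Atf4-/- difference was -1.45 and the average -1.18, and the mean of both Apoa2 probe sets gave -0.62, -0.72 and -0.67.

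The other Apoa2 probe set was also lower in the treated arrays of each genotype, over a narrower range. Its ratio (161924_f_at) was 1.08 and 1.0 in untreated Atf4+/+, 0.96 and 0.66 in treated Atf4+/+, 1.24 and 1.26 in untreated Atf4-/-, and 1.0 and 0.98 in treated Atf4-/- livers. The log2 difference with AP20187 was -0.34 ± 0.23 in Atf4+/+ and -0.31 ± 0.23 in Atf4-/- (SE; limma adjusted p = 0.696 and 0.781). Treated and untreated arrays did not overlap within either genotype, and the Atf4+/+ difference was -0.10 without treated Atf4+/+ replicate 2. Across the 8 arrays the log2 ratios of the Apoa2 probe sets had Pearson's r = 0.852 (exact permutation p = 0.00724) and Spearman's rho = 0.946 (exact permutation p = 0.00109), with adjusted values of 0.0145 and 0.00218 over the 2 genes compared. The permutations exchanged arrays without regard to group, and the arrays share RNA quality and scaling. A small p therefore does not measure agreement of the probe sets alone. Leaving out replicate 2 of both treated groups, the arrays farthest from the median, left r = 0.807. For all 1675 genes with exactly 2 probe sets the median r was 0.175 (quartiles -0.152 and 0.496). By the probe set used for each gene, Apoa2 had r = 0.869 with a different gene, Apoc2. The median over all 45 pairs of member genes was 0.607.

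Apoa4, made in mouse by both intestine and liver and carried on HDL and chylomicrons, differed widely between the untreated groups. Its ratio (100078_at) was 0.47 and 0.76 in untreated Atf4+/+, 0.91 and 0.97 in treated Atf4+/+, 2.70 and 1.07 in untreated Atf4-/-, and 1.03 and 1.51 in treated Atf4-/- livers. By the probe set used for each gene, it was the 1 gene whose treatment difference pointed upward in Atf4+/+ (0.57 ± 0.46, SE; limma adjusted p = 0.738) and downward in Atf4-/- (-0.42 ± 0.46, adjusted p = 0.840), and the difference between these effects was -0.99 ± 0.64 (adjusted p = 0.944). Between untreated genotypes it was 1.37 ± 0.46 higher in Atf4-/- (limma adjusted p = 0.821), 2.30 without both doubted arrays, and 0.07 when the array with conflicting labels, which held the 2.70, was grouped as Atf4+/+. That grouping also turned both treatment differences, to -0.10 in Atf4+/+ and 0.21 in Atf4-/-. Measured enterocyte markers (4 of 6 listed) had mean log2 values relative to a ratio of 1 between -0.80 and -0.27 in the 8 arrays, without a high value in untreated Atf4-/- replicate 1 (-0.58).

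Apob, which forms VLDL and is kept in the endoplasmic reticulum until lipid is added, was low in 1 array. Its ratio (96792_at) was 1.30 and 0.78 in untreated Atf4+/+, 1.01 and 0.29 in treated Atf4+/+, 0.99 and 1.01 in untreated Atf4-/-, and 1.03 and 0.84 in treated Atf4-/- livers. Groups overlapped in both genotypes. The treatment difference was -0.75 ± 0.50 in Atf4+/+ and -0.09 ± 0.50 in Atf4-/- (SE; limma adjusted p = 0.694 and 0.981). It was 0.00 in Atf4+/+ without treated Atf4+/+ replicate 2. Mttp, the transfer protein that loads lipid onto apoB, was low in the same array, with ratios of 1.27 and 0.36 in treated and 1.17 and 0.93 in untreated Atf4+/+ livers.

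The exchangeable apolipoproteins of the chromosome 7 group had small differences. Apoc1, whose product inhibits uptake of remnant particles, had ratios (93354_at) of 1.04 and 0.90 in untreated Atf4+/+, 0.97 and 0.81 in treated Atf4+/+, 1.05 and 1.19 in untreated Atf4-/-, and 0.99 and 1.01 in treated Atf4-/- livers. Its treatment differences were -0.11 ± 0.21 and -0.15 ± 0.21 (SE; limma adjusted p = 0.901 and 0.885). Only the Atf4-/- arrays were without overlap. For Apoc2, the activator of lipoprotein lipase, the ratios (97887_at) were 1.0 and 1.17 in untreated Atf4+/+, 0.90 and 0.55 in treated Atf4+/+, 1.33 and 1.02 in untreated Atf4-/-, and 1.0 and 0.93 in treated Atf4-/- livers. Its groups did not overlap in either genotype, at -0.55 ± 0.28 in Atf4+/+ and -0.25 ± 0.28 in Atf4-/- (SE; limma adjusted p = 0.617 and 0.848). Without treated Atf4+/+ replicate 2 the former was -0.24, and without untreated Atf4-/- replicate 1, the array with conflicting labels, the latter was -0.07. Apoc4, a minor VLDL protein next to Apoc2, had ratios (101463_at) of 1.0 and 1.02 in untreated Atf4+/+, 0.99 and 0.67 in treated Atf4+/+, 0.95 and 1.19 in untreated Atf4-/-, and 1.0 and 1.03 in treated Atf4-/- livers. Its differences were -0.28 ± 0.25 and -0.06 ± 0.25 (SE; limma adjusted p = 0.765 and 0.972), and the first was -0.03 without treated Atf4+/+ replicate 2. The Atf4+/+ groups did not overlap and those of Atf4-/- did.

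Apoe, the ligand by which the liver takes up remnant particles, was read by 2 probe sets that disagreed. By 95356_at its ratio was 1.01 and 0.89 in untreated Atf4+/+, 0.86 and 0.97 in treated Atf4+/+, 1.24 and 1.21 in untreated Atf4-/-, and 0.99 and 1.04 in treated Atf4-/- livers. These values followed Alb closely (Pearson's r = 0.992 over the 8 arrays, a description over arrays that share their scaling), with treatment differences of -0.05 ± 0.20 and -0.25 ± 0.20 (SE; limma adjusted p = 0.955 and 0.791). By 161321_i_at the ratio was 0.35 and 0.27 in untreated Atf4+/+, 1.85 and 1.31 in treated Atf4+/+, 2.67 and 0.57 in untreated Atf4-/-, and 0.61 and 0.59 in treated Atf4-/- livers. The treated Atf4+/+ arrays were far above the untreated ones here, by 2.02 ± 0.62 (SE; limma adjusted p = 0.453), while in Atf4-/- the difference was -0.96 ± 0.62 (adjusted p = 0.752). The difference between these effects, -2.98 ± 0.88, had a limma adjusted p = 0.901. The value of 2.67 came from the array with conflicting labels, and grouping it as Atf4+/+ gave treatment differences of 1.102 and 0.063. This is the 1 member probe set with a row median (0.60) below 0.99, and the suffix i marks sets for which the array maker had fewer probes than usual.

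**Figure D2:**
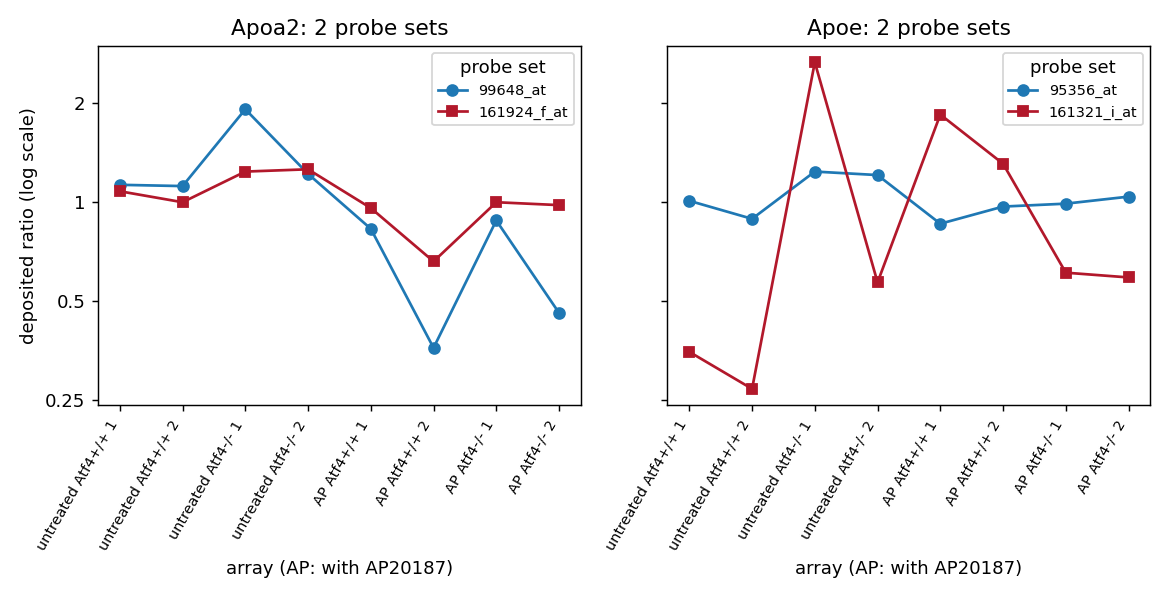
Deposited ratio (log axis) of both probe sets of Apoa2 (left) and of Apoe (right) in each of the 8 arrays, 1 point per array, with lines that only join the points of a probe set. The Apoa2 lines are lowest in the same array, at 0.36 and 0.66, whereas 161321_i_at of Apoe runs from 0.27 to 2.67 while 95356_at stays between 0.86 and 1.24.

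Across the 8 arrays the Apoe probe sets had r = 0.225 (exact permutation p = 0.586) and rho = 0.095 (exact permutation p = 0.840), the adjusted values being the same. Here too arrays were exchanged without regard to group. Without the untreated Atf4-/- arrays, those farthest from the median, r was -0.328. The Apoe probe sets gave differences of the same sign in 3 of the 6 comparisons and those of Apoa2 in 5 of 6. The statement on Apoe therefore depends on the probe set, and 95356_at stands for the gene in the counts that follow.

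Apoh, or beta-2-glycoprotein I, binds phospholipid and circulates partly on lipoproteins. Its ratio (94318_at) was 1.05 and 0.93 in untreated Atf4+/+, 0.92 and 0.70 in treated Atf4+/+, 1.21 and 1.01 in untreated Atf4-/-, and 0.99 and 1.06 in treated Atf4-/- livers. The Atf4+/+ groups did not overlap and the Atf4-/- groups did. The treatment differences were -0.27 ± 0.23 and -0.10 ± 0.23 (SE; limma adjusted p = 0.751 and 0.933). The first was -0.09 without treated Atf4+/+ replicate 2.

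In Atf4+/+ livers, the setting in which the whole pathway from PERK to ATF4 can act, 9 of the 10 genes had a log2 difference below 0, with a median of -0.24, against 55.3% of all genes and a median of -0.06. By limma 0 of 12 member probe sets passed, and 1 of 12422 did (0.00805%), with 1 member (161321_i_at of Apoe) and 1130 in all at an unadjusted p under 0.05. The treated arrays lay below the untreated without overlap for 6 of 12 probe sets (Apoa1, both of Apoa2, Apoc2, Apoc4 and Apoh), against 21.3% of all, and above them for 2 (Apoa4 and 161321_i_at of Apoe), against 16.7%. Without treated Atf4+/+ replicate 2 the count of genes below 0 was 7 of 10, without treated or untreated replicate 1 also 7, and without the doubted untreated array 9. The count of probe sets lower without overlap was 10 of 12 without the doubted untreated array (37.7% of all), 5 with the array of conflicting labels added to the untreated Atf4+/+ group (15.4%) and 8 without treated Atf4+/+ replicate 2 (37.1%).

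In Atf4-/- livers all 10 genes had a difference below 0, with a median of -0.23, against 51.1% of all genes and a median of -0.01. None of the 12 probe sets and none of 12422 passed limma (0%), and 1 member (99648_at of Apoa2) and 922 in all had an unadjusted p under 0.05. The groups did not overlap for 7 of 12, all lower (Alb, Apoa1, both of Apoa2, Apoc1, Apoc2 and 95356_at of Apoe), against 22.3% lower in the whole table. It was 10 of 12 without both doubted untreated arrays (39.2% of all) and 8 when the array with conflicting labels was grouped as Atf4+/+ (37.8%), each time with a single untreated array left. The count of genes below 0 was 9 of 10 without both doubted untreated arrays and 8 of 10 when the array with conflicting labels was grouped as Atf4+/+. Averaged over both genotypes, 9 of 10 genes were below 0 (median -0.18; 54.7% of all genes, median -0.04). By limma 0 members passed, and 5 of all probe sets did (0.0403%), with 1 member (99648_at of Apoa2) and 1405 in all at an unadjusted p under 0.05. Apoa2 (99648_at) was the 1 probe set of 12 without overlap of the 4 treated and 4 untreated arrays, where 3.78% of all were lower in this way.

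**Figure D3:**
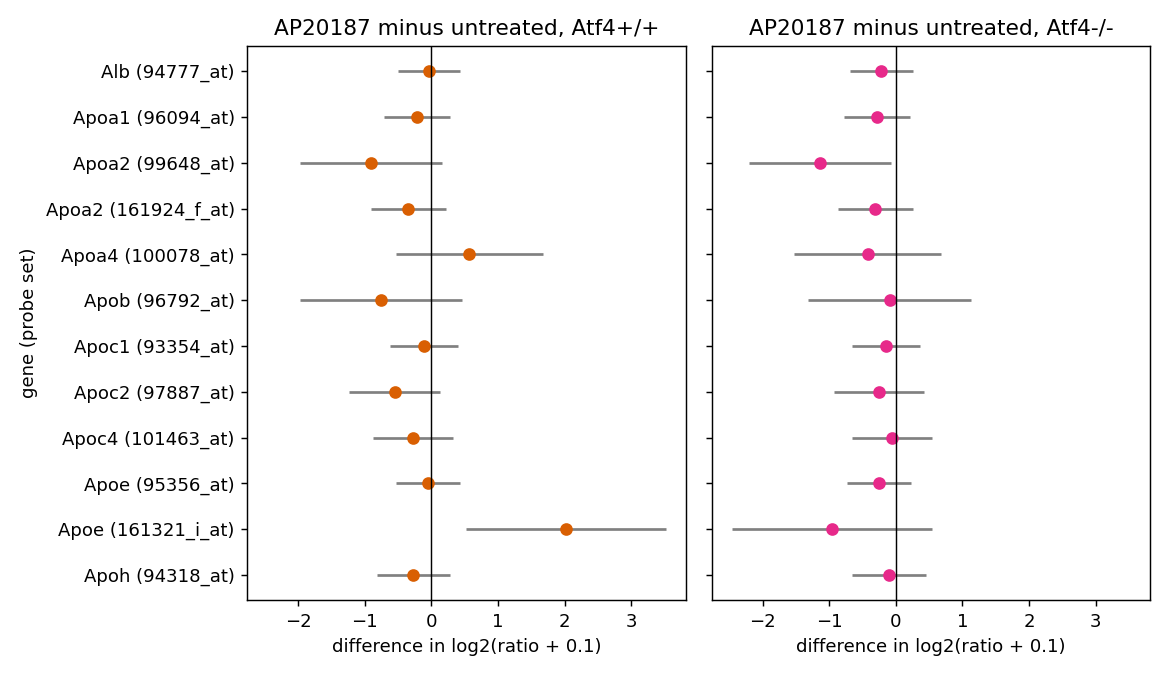
Difference in log2(ratio + 0.1) between AP20187-treated and untreated livers for the 12 member probe sets, in Atf4+/+ (left) and Atf4-/- (right), points being limma estimates from 2 against 2 arrays and bars their 95% intervals. Most points lie slightly left of 0, and the unadjusted interval leaves out 0 for 161321_i_at of Apoe on the left (0.52 to 3.53) and for 99648_at of Apoa2 on the right (-2.21 to -0.07).

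The effect of AP20187 was not found to differ between the genotypes for any member. Of 12 probe sets 0 passed limma, as did 0 of 12422 (0%), with 1 member (161321_i_at of Apoe) and 678 in all at an unadjusted p under 0.05. The difference of effects was below 0 for 6 of 10 genes (median -0.05, all genes 45.4% and 0.05). Intervals were wide: for Alb the difference was -0.18 (95% interval -0.85 to 0.48), for Apoa1 -0.08 (-0.78 to 0.63), for Apoa2 by 99648_at -0.24 (-1.75 to 1.28) and for Apob 0.66 (-1.06 to 2.38). Without treated Atf4+/+ replicate 2 all 10 genes lay below 0.

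With AP20187, all 10 genes were higher in Atf4-/- than in Atf4+/+ livers by the group means, the median log2 difference being 0.25, against 44.9% of all genes below 0 and a median of 0.05. The values ran from 0.14 ± 0.20 for Apoe (95356_at) and 0.14 ± 0.19 for Alb through 0.40 ± 0.28 for Apoc2 to 0.65 ± 0.50 for Apob (SE; limma adjusted p between 0.956 and 0.979 over the 10 genes). No probe set passed limma among the members or in the table (0%), where 0 members and 659 in all had an unadjusted p under 0.05. The Atf4-/- arrays lay above without overlap for 9 of 12 probe sets, against 19.2% of all, and below for 161321_i_at of Apoe, against 15.3%. Without treated Atf4+/+ replicate 2, 2 of 10 genes were below 0, and 9 of 12 probe sets were higher without overlap (37.4% of all). Each comparison of genotypes shares its arrays with the treatment comparisons above.

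Among untreated livers 9 of 10 genes were higher in the arrays labelled Atf4-/-, with a median of 0.24, against 52.6% of all genes below 0 and a median of -0.02. The differences ran from -0.01 ± 0.50 for Apob to 1.37 ± 0.46 for Apoa4, with 0.32 ± 0.19 for Alb and 0.34 ± 0.20 for Apoe by 95356_at (SE; limma adjusted p = 0.972 for both of the last). No probe set passed limma (0%), with 2 members (Apoa4 and 161321_i_at of Apoe) and 661 in all at an unadjusted p under 0.05. The arrays labelled Atf4-/- lay above without overlap for 8 of 12, against 15.5% of all, and below for 0, against 16.4%. Leaving out both doubted arrays put 2 of 10 genes below 0 and 10 of 12 probe sets above without overlap (49.3% of all). Grouping the array with conflicting labels as Atf4+/+ put 3 genes below 0 and 3 probe sets above without overlap (22.6%).

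The members varied together. Over the 45 pairs of genes the Pearson correlation of log2 ratios across the 8 arrays had a median of 0.607 and ran from -0.07 (Apoa4 with Apob) to 0.992 (Alb with Apoe), with 43 pairs above 0. These are descriptions over arrays that share RNA quality and scaling. The 4 genes of the chromosome 7 group had a median of 0.64 over 6 pairs, and Apoa1 and Apoa4 of the chromosome 9 group had 0.657. By value the genes could be read as a set with Alb, Apoe and Apoa1 (r of 0.86 to 0.99) and another with Apob, Apoc4, Apoc1, Apoc2 and Apoh (0.60 to 0.88), which is a reading made after the values were seen. The sets were not clearly separate, as r between them ran from 0.18 (Alb with Apob) to 0.77 (Apoa1 with Apoh). Apoa2, placed in neither, had 0.87 with Apoc2. The 5 other genes whose log2 ratios were most like the mean of the 10 members over the 8 arrays were Tspan6 (r = 0.979), Akr1a1 (0.958), Dad1 (0.956), Upp1 (0.956) and Pigr (0.954). They head a ranking of the genes outside the members among the 8251 covered, so some high values follow from the size of the search. Tspan6 had ratios of 0.2 to 0.84, below 1 in all 8 arrays. Dad1, a subunit of the enzyme that attaches sugars to secretory proteins, had ratios of 1.34 and 1.07 in untreated Atf4-/- and 0.85 and 0.60 in treated Atf4+/+ livers.

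Other genes of lipoprotein metabolism were mostly lower with treatment by their estimates, though none passed the test. Of 46 listed genes 28 were measured. In Atf4+/+ livers 19 of 28 had a difference below 0 (median -0.30) and in Atf4-/- 21 of 28 (median -0.17), and averaged over genotypes 24 of 28 (median -0.23), against 54.7% of all genes. In each of the 6 comparisons 0 of the 28 rose and 0 fell by limma. At an unadjusted p under 0.05, 1 was higher and 5 lower in treated Atf4+/+ livers, and 1 was higher and 0 lower in treated Atf4-/- livers. Among the assembly genes (7 measured), the treatment difference in Atf4+/+ was -0.65 for P4hb, the disulfide isomerase subunit of the transfer protein, -0.53 for Mttp and -0.34 for the Apob messenger editor Apobec1. Among the 5 other apolipoproteins, Apom, a carrier of sphingosine-1-phosphate on HDL, had ratios (93840_at) of 1.07 and 1.07 in untreated and 0.61 and 0.36 in treated Atf4+/+, and of 1.24 and 0.78 in untreated and 0.99 and 1.01 in treated Atf4-/- livers. Its difference was -1.03 ± 0.31 in Atf4+/+ (SE; limma adjusted p = 0.436) and 0.02 ± 0.31 in Atf4-/- (adjusted p = 0.995). Another Apom probe set, 162148_r_at, had 0.25 and 1.53 in untreated and 1.12 and 1.40 in treated Atf4+/+ livers and did not follow it. Apof was -0.91 in Atf4+/+ and 0.13 in Atf4-/-, and Apoa5, an activator of triglyceride breakdown, 0.30 and -0.63.

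Among the genes that remodel particles in plasma (7 measured), Lpl, the lipase that apoC-II activates, had ratios (95611_at) of 0.83 and 1.04 in untreated Atf4+/+, 0.96 and 1.64 in treated Atf4+/+, 0.30 and 0.56 in untreated Atf4-/- and 2.11 and 1.60 in treated Atf4-/- livers. The difference of 1.92 ± 0.37 in Atf4-/- had the lowest p of the list (limma adjusted p = 0.333). Its other probe set, 160083_at, had 0.22 and 0.91 in untreated and 1.43 and 1.03 in treated Atf4-/- livers, also without overlap. In Atf4+/+ that probe set lay the other way, with 1.27 and 1.23 in untreated and 0.79 and 0.97 in treated livers (-0.47, against 0.40 by 95611_at). Lcat, which esterifies cholesterol on HDL, was -0.30 in Atf4+/+ and 0.04 in Atf4-/- by 103023_at, and 0.21 and -0.02 by 161759_r_at. Of the 9 receptors and transporters, the fatty acid transporter Cd36 was 1.16 in Atf4+/+ (limma adjusted p = 0.394) and -0.33 in Atf4-/- by 93332_at. Another Cd36 probe set, 161704_r_at, had ratios of only 0.1 to 0.17 over the arrays and did not show the rise in Atf4+/+. The remnant receptors Lrp1 and Lsr were -0.77 and -0.96 in Atf4+/+ and -0.07 and -0.30 in Atf4-/-, and the HDL receptor Scarb1 was -0.52 and -0.04. Another Lsr probe set, 162274_f_at, gave -1.98 and 1.94.

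Of 36 other secreted proteins of hepatocytes 28 were measured. Below 0 were 21 of 28 in Atf4+/+ livers (median -0.11), 14 of 28 in Atf4-/- (median 0.00) and 19 of 28 averaged (median -0.04), and by limma 0 rose and 0 fell in each comparison (at an unadjusted p under 0.05, 0 higher and 2 lower in Atf4+/+, 1 higher and 0 lower in Atf4-/-). Ttr, the thyroid hormone carrier whose promoter drives the transgene, had ratios (95350_at) of 1.15 and 1.02 in untreated Atf4+/+, 0.83 and 0.47 in treated Atf4+/+, 1.43 and 1.25 in untreated Atf4-/- and 0.98 and 0.93 in treated Atf4-/- livers. Its differences were -0.70 ± 0.28 and -0.45 ± 0.28 (SE; limma adjusted p = 0.540 and 0.747). Fgb, a fibrinogen chain, lay in the other direction at 0.48 and 0.70, and the fetal relative of albumin, Afp, at -0.29 and -0.40 by 101494_at and at -0.10 and 0.28 by 101493_at.

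Regulators of liver genes (22 of 27 measured) also had 0 past the test in either direction, with 12 of 22 below 0 in Atf4+/+ (median -0.09) and 5 of 22 in Atf4-/- (median 0.16). At an unadjusted p under 0.05 limma gave 1 higher and 1 lower in Atf4+/+ and 1 higher and 0 lower in Atf4-/-. Nfil3, a repressor of the circadian output genes, had the smallest p of the list when averaged, by the probe set used for each gene, with ratios (102955_at) of 0.70 and 0.33 in untreated Atf4+/+, 1.47 and 1.54 in treated Atf4+/+, 0.71 and 0.34 in untreated Atf4-/- and 1.29 and 1.41 in treated Atf4-/- livers (1.37 ± 0.28, SE; limma adjusted p = 0.221). Rora, a nuclear receptor of the clock, had a lower p by a probe set not used for the gene, 101889_s_at (1.41 averaged, limma adjusted p = 0.111), and 0.27 by the one used. Hnf4a, a receptor known to act on many apolipoprotein promoters, was 0.01 and 0.36 in the 2 genotypes, Cebpa -0.09 and 0.08, Cebpb 0.83 and 0.90, and the orphan receptor Nr0b2 -1.62 and -0.28.

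**Figure D4:**
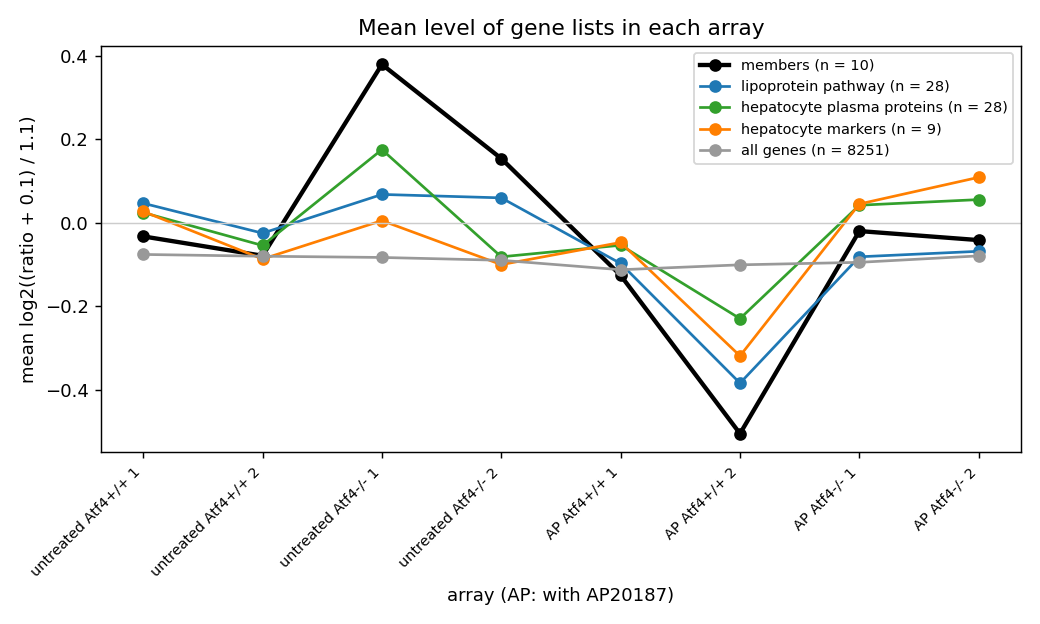
Mean over genes of log2((ratio + 0.1) / 1.1) in each array, 0 being a ratio of 1, for the 10 member genes, 28 lipoprotein pathway genes, 28 hepatocyte plasma protein genes, 9 hepatocyte markers and all 8251 genes, with lines that only join the points of a list. The member mean is highest in untreated Atf4-/- replicate 1 (0.38) and lowest in treated Atf4+/+ replicate 2 (-0.50), where the hepatocyte marker mean (-0.32) is lowest too.

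The mean of the hepatocyte markers was low with that of the members in 1 array. The mean log2 value of these markers relative to a ratio of 1 (9 of 10 listed genes measured, none of them a member) was between -0.10 and 0.11 in 7 arrays. It was -0.32 in treated Atf4+/+ replicate 2, where the members stood at -0.50 and all genes at -0.10. Single markers differed in that array, with ratios from 0.44 (Tdo2 by 93827_at) and 0.57 (Pck1) to 1.13 (Tat) and with Cps1 and Cyp2e1 at 0.9. Another Tdo2 probe set, 99269_g_at, had 0.82 in the same array. The members Alb and Apoe (95356_at) stood at 0.98 and 0.97 there. In untreated Atf4-/- replicate 1, where the members stood at 0.38, the hepatocyte markers stood at 0.01 and the Kupffer cell and macrophage markers (11 of 12 measured) at 0.43, against -0.38 to 0.11 in the other arrays. Endothelial markers (7 of 8) ranged from -0.24 to 0.32 and were lower with AP20187 by their estimates in 7 of 7 in Atf4+/+ (median -0.20) and 5 of 7 in Atf4-/- (median -0.27), beside medians of -0.24 and -0.23 for the members. Over the arrays, stellate cell and fibroblast markers (7 of 8) ranged from -0.32 to 0.28, bile duct markers (4 of 6) from -0.54 to 0.18, T and B cell markers (8 of 9) from -0.48 to 0.05, red blood cell markers (4 of 6) from -0.33 to 0.27, neutrophil markers (6 of 6) from -0.38 to 0.47 and adipocyte markers (2 of 4) from -0.27 to 0.16. The part of cell makeup in the members' values was not tested. Ratios do not show which markers are absent. By limma 0 marker genes of any list passed in any comparison, with at most 1 gene of a list in each direction at an unadjusted p under 0.05.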

How the data were processed

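Total RNA of 8 mouse liver samples was labelled with biotin, per the labels' protocols, and hybridised to MG-U74Av2 arrays. The authors deposited 1 table of linear ratios in steps of 0.01; the signal summary and the divisor are not given in the sources used here. The median over the 8 arrays was at least 0.99 in 10714 of 12488 probe sets. After 66 control probe sets were left out, log2(ratio + 0.1) was fitted in limma 3.58.1 (R 4.3.3, statmod 1.5.0) with 4 group means on all 8 arrays, with eBayes (4 residual and 2.37 prior degrees of freedom) and adjustment over 12422 probe sets in each of 6 comparisons. The median SE of 2 against 2 arrays was 0.325. The script was tested on simulated data. Probe sets were named through the platform annotation (10833 with 1 gene, 396 with several, 1193 with none) and gene identifiers in GRCm38.p6. For a gene with several, preference went to a median of 0.99 or more, next to a plain name and last to the smallest SD within groups. Named were all 10 members, Atf4, a preset list of genes wherever measured, up to 3 genes of smallest p in a list, and the 5 genes most like the members' mean. Other values of named lists are ranges and counts. The members and lists were chosen with earlier results of these data known. Alternatives were other pseudocounts, normalizations, filters, moderation, array weights, groupings, probe set choices and leaving out each array. The counts by highest or lowest array and by overlap without the arrays in doubt were added after seeing the data. Plots used matplotlib 3.10.9 in Python 3.11.15.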

Additional observations from a re-analysis of the deposited data

How the results depend on the processing

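No member probe set passed the test under any alternative, the smallest adjusted p over all of them being 0.185. Over 12 probe sets and 6 comparisons, 681 of 702 alternative values kept their sign and 21 changed it; with 1 array left out, 540 of 576 kept it. Pseudocounts of 0.01 and 0.5, quantile normalization, median centring and the filter on row medians changed no sign among the values listed here. Neither did robust moderation, array weights and the fit of only the groups compared (the same as the main one for the average and the difference of effects). Robust moderation and the fit of only the groups compared leave group means as they are, and array weights were equal within each group. Signs kept under these settings were fixed in advance and are no measure of stability, wherever they are counted above. With untreated Atf4-/- replicate 1 grouped by its description, the AP20187 difference of Apoa4 became -0.096 in Atf4+/+ and 0.205 in Atf4-/-, those of Apoe (161321_i_at) and Apoh in Atf4-/- became 0.063 and 0.019, the untreated genotype difference of Apoe (161321_i_at) became -0.206, and the number of genes below 0 became 3 for the difference of effects and 3 between untreated genotypes. Without both doubted untreated arrays, Apoc4 in Atf4-/- became 0.087, the averages of Apoa4 and Apoe (161321_i_at) -0.093 and -0.052, and 2 genes were below 0 between untreated genotypes. With the mean of a gene's probe sets, Apoe became 0.987 in Atf4+/+ and 0.191 averaged, and 1 gene was below 0 between treated genotypes. Leaving out 1 array gave a lone array in a group, which is assumed to vary like the others. The ranges in Atf4+/+ were then -0.106 to 0.035 for Alb, -0.131 to 0.034 for Apoe (95356_at), -1.51 to 0.0001 for Apob and -0.231 to 0.0031 for Apoc1. In Atf4-/- they were -1.05 to 0.205 for Apoa4, -1.98 to 0.063 for Apoe (161321_i_at), -0.220 to 0.019 for Apoh, -0.211 to 0.087 for Apoc4 and -0.227 to 0.039 for Apob, and the average of Apoa4 ran from -0.242 to 0.388. Counts of genes below 0 ran from 7 to 9 in Atf4+/+, 8 to 10 in Atf4-/-, 9 to 10 averaged, 4 to 10 for the difference of effects, 0 to 2 between treated and 1 to 2 between untreated genotypes. The causes were not tested. No paired analysis was possible because the labels give the groups no shared replicate numbers. Signal over background is unknown, so that what dim probe sets limit could not be measured.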
